A study of Mus musculus with 6 samples.

Results

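The genes described here encode the eukaryotic translation initiation factors of the mouse, the proteins that bring the ribosome, the initiator tRNA and the mRNA together at a start codon. They were taken by name, as every gene of the table whose symbol starts with Eif and a digit from 1 to 6, which gave 54 of 21761 genes. They include the regulators that share the name, namely the eIF2 kinases and the eIF4E-binding proteins. Their RNA was followed over an ex vivo culture of bone marrow with Flt3 ligand (Flt3L), a cytokine under which marrow progenitors develop into dendritic cells (DCs).

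All 6 RNA-seq libraries carry the labels male, C57BL/6J and bone marrow, with no genetic change named. Day 0 is fresh marrow (replicates II and III), before any culture. Day 4 (replicates I and II, titled CMP, for common myeloid progenitors) and day 7 (replicates III and IV, titled BMDC, for marrow-derived DCs) were grown in RPMI with a supernatant holding Flt3L from a transfected SP2/0 line, a mouse myeloma. The labels tie neither libraries to separate animals nor cultures to separate marrow, so that p-values reflect the spread between these libraries alone, which may be technical.

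In the textbook scheme, eIF2 bound to GTP carries the initiator tRNA to the small ribosomal subunit, where eIF1, eIF1A, eIF5 and the large eIF3 complex gather. The eIF4 proteins bind the cap of the mRNA, unwind its leader and connect it to eIF3, and eIF5B then joins the large subunit. Cells adjust this pathway at eIF2, which the Eif2ak kinases phosphorylate so that the exchange factor eIF2B is blocked, and at the cap, where eIF4E-binding proteins hold eIF4E until mTORC1 phosphorylates them.

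Depth and composition of the libraries bear on every value. Totals ran from 157797 and 322837 reads on day 0 to 10951745 and 16149088 on day 7, and in the shallowest library, day 0 III, 29 of the 54 genes had under 10 reads. Erythroid markers summed to 40185 and 80937 RPKM (reads relative to a gene's exon length and the library's total) on day 0, 3923 and 4243 on day 4, and 47.5 and 64.9 on day 7, when 5 and 6 of the 11 were at 0. Neutrophil markers (12 genes) summed to 8032 and 64009, then 34595 and 47446, then 196 and 206 RPKM, with 1 and 5 at 0 on day 7. Macrophage markers (10 genes) ran the other way, at 119 and 126, then 142 and 234, then 11234 and 12031 RPKM. Conventional DC markers (12 genes) summed to 2798 and 2984 RPKM on day 7 and to at most 565 before. Most of the day 7 sum came from Cd74 (1814 and 1932), H2-Ab1 (666 and 730) and H2-Aa (268 and 258). The median of the list was 5.06 and 7.25 RPKM on day 7 and 1.73 to 6.86 before. Zbtb46 and Flt3, named here after their values were seen, were low on day 7 at 0.0288 and 0.0283 RPKM and at 1.22 and 1.97 RPKM. The part of these shifts in the results below was not tested, and in bulk RNA fewer cells of a type cannot be told apart from less RNA per cell.

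The day 7 libraries also went against their male label. Each held 1 read over 33 Y-linked genes in the table, where the other 4 libraries held 112 to 1344. Ddx3y, Uty and Kdm5d, named after their values were seen, had no read on day 7, while Xist, also named so, stood at 9.63 and 6.58 RPKM there and at 2.23 or less elsewhere. The day 7 libraries labelled male thus hold next to no reads of the Y chromosome. In every comparison with day 7, and for genes on any chromosome, the day cannot be told apart from the source animals.

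Initiation factor genes on the sex chromosomes include the X-linked Eif1ax, described below, and a pair of genes for the gamma subunit of eIF2. That subunit binds GTP and the tRNA, and the pair is Eif2s3x on the X and Eif2s3y on the Y chromosome. The start regions of this pair are shown with those of Eif3f and Eif2b2, called higher at day 7 against either earlier day, because these 4 genes carry a run of pyrimidines next to the annotated start. Such runs are known from mRNAs of the translation machinery whose use mTORC1 controls. Sequences are from RefSeq on GRCm38.p6, 25 bases before the start and 21 from it on. Capitals mark the run, counted from the C at which the search described below matched.

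Eif2s3x, chrX:94212631-94212676, minus strand: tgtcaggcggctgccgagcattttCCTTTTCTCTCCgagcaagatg
Eif2s3y, chrY:1010570-1010615, plus strand: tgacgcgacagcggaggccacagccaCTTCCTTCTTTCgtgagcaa
Eif3f, chr7:108934390-108934435, plus strand: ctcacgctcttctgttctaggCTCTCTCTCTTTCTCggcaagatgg
Eif2b2, chr12:85219456-85219501, plus strand: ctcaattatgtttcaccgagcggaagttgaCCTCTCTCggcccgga

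Counted from that C, the run begins 1 base before the start in Eif2s3x and 1 base after it in Eif2s3y, and is 12 bases long in each. In Eif2s3x further T bases stand directly before the C and are not counted, so its whole stretch of pyrimidines is longer. Eif3f has the longest run counted from a C, 15 bases from 4 bases before the start, and Eif2b2 has 8 bases from 5 bases after it. The search asked for a C at most 5 bases from the start, on the gene's own strand, followed by at least 6 bases that were each C or T. It matched 7 of the 43 initiation factor genes with an entry (16.3%) and 2066 of all 27025 genes (7.64%). The other matches, Eif3l, Eif2b5 and Eif2ak4, passed no test in any comparison, and a match is a description of letters, not of a working element.

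The level of the family can be given before any test. In RPKM, which is per length, 6 genes had a mean over 100, 36 a mean of 10 to 100 and 12 a mean under 10. Eif1, which guards the choice of start codon, was the highest in every library, at 634 and 215 RPKM on day 0, 822 and 1117 on day 4 and 1182 and 1639 on day 7. The median gene stood at 22.5 and 20.7 RPKM on day 0, 16.4 and 26.4 on day 4, and 34.2 and 31.6 on day 7. Together the 54 genes took 0.634% and 0.589% of reads on day 0, 0.581% and 0.870% on day 4, and 0.869% and 0.921% on day 7. One day 4 library, II, thus stood with day 7 and the other, I, with day 0.

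Between replicates, 12 of the 54 genes (22.2%) differed by over 2-fold in RPKM + 1 on day 0, 9 (16.7%) on day 4 and 2 (3.70%) on day 7. The added 1 shrinks ratios, so more genes differ by over 2-fold in RPKM itself. Eif2s2, at 9.33 and 19.1 RPKM on day 0, is one not counted. Over the 19279 genes tested below the shares, also in RPKM + 1, were 38.3%, 37.0% and 6.48%. At the bottom, Eif4e1b, an oocyte form of the cap-binding protein, had 8 reads in all and was not tested. Eif4ebp3, a minor eIF4E-binding protein, had 6 reads, 5 of them in day 4 library II. The other 53 genes entered a limma fit of log2(RPKM + 1) over 19279 genes, and a gene is called where the Benjamini-Hochberg adjusted p is under 0.05. Fold changes on that scale understate the change of low genes.

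From day 0 to day 4, Eif4ebp2, one of the repressors that bind eIF4E, was the single gene called. It stood at 33.0 and 39.0 RPKM on day 0, 7.79 and 6.39 on day 4, and 6.52 and 7.87 on day 7. The day 0 libraries lay above all 4 later ones, which overlapped each other. It fell by 2.19 ± 0.38 (SE) on the log2 scale from day 0 to day 4 (limma adjusted p = 0.0210) and fell by 2.17 ± 0.38 from day 0 to day 7 (limma adjusted p = 0.00659). No gene was called higher at day 4, and 5 passed an unadjusted p of 0.05 in limma. Over all genes tested 3.66% were called higher and 1.92% lower, and 1 of 53 lower is near that background. Among genes averaging 5 RPKM or more 8.29% were called higher and 3.36% lower, against 0 and 1 of 47 initiation factor genes. With voom on reads in place of log2 RPKM, no gene was called lower. Leaving out day 4 library I or II left no gene of the whole table called, so it tests no single gene, and the change of Eif4ebp2 was then -2.32 and -2.07. Without day 0 library II, where 1 library stands for marrow, 6 initiation factor genes were called higher.

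**Figure D1:**
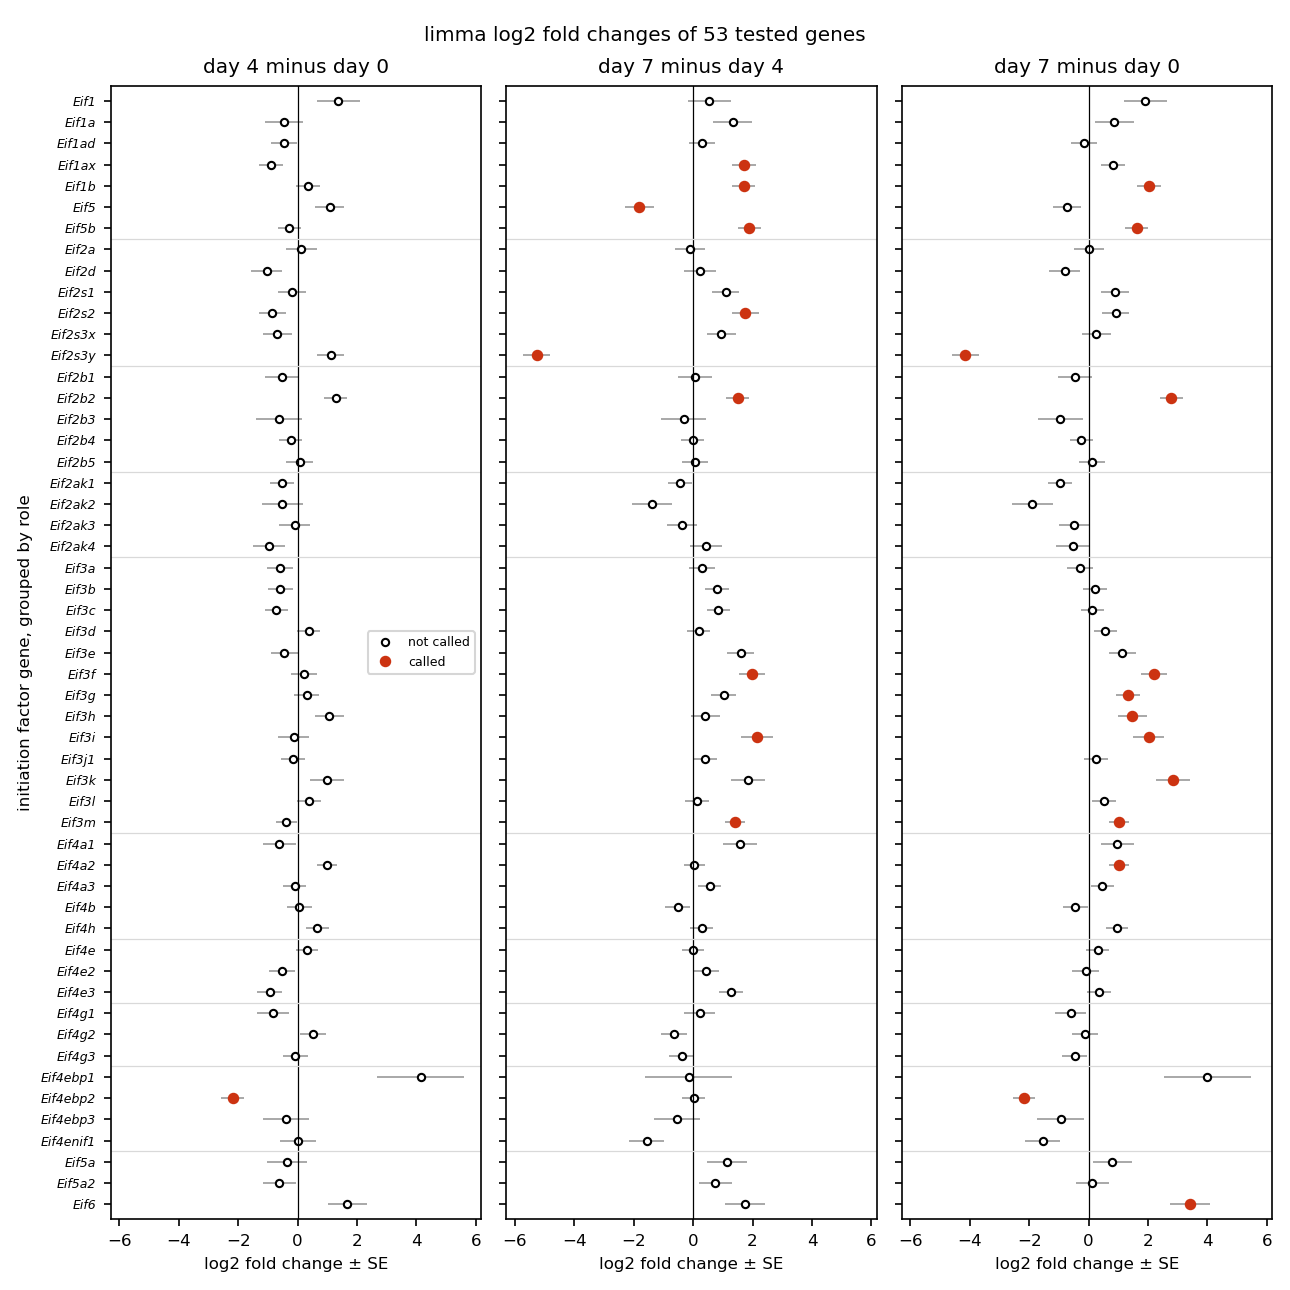
Log2 fold change (horizontal axis, ± SE) of the 53 tested initiation factor genes, grouped by role, in 3 comparisons of 2 libraries against 2, with filled points for genes called at adjusted p under 0.05. At day 4 against day 0 only Eif4ebp2 is filled, and at day 7 the filled points include 3 eIF3 genes against day 4 and 6 against day 0.

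From day 4 to day 7, 8 genes rose and 2 fell, against 5.85% of all genes called higher and 6.75% lower. Most of the 54 are well expressed, and of the 8121 genes averaging 5 RPKM or more 13.5% were called higher, against 17.0% of the 47 initiation factor genes at that level. The shares called lower were 13.5% of those genes and 4.26% of the 47, that is 2 genes. From day 0 to day 7, 11 genes rose and 2 fell, where 11.3% of all genes were called higher and 29.3% lower. Among genes averaging 5 RPKM or more 25.9% were called higher there, and of the 47 initiation factor genes 23.4%. Called lower were 17.6% and, again 2 genes, 4.26%. The shares called higher were thus near the background at that level and the shares called lower under it, a difference that was not tested, and the calls are given as single genes. The comparisons share libraries and are not independent of each other. The median log2 fold change of the family was -0.20, 0.39 and 0.26 in the comparisons of day 4 with day 0, day 7 with day 4 and day 7 with day 0. Over genes averaging 5 RPKM or more it was 0.20, -0.03 and 0.18, and over all genes tested -0.40, -0.81 and -1.14. After quantile normalization, which moved the median of all genes to -0.04, 0.04 and -0.01, the medians of the family were -0.40, 0.19 and -0.09, so the sign for day 7 against day 0 turned.

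Leaving out either day 4 library left no gene of the whole table called from day 4 to day 7, Eif2s3y included, so it tests no single gene. Leaving out day 7 library III or IV left 821 and 622 genes of the table called, with none of the 8 initiation factor genes among them. Over these 4 fits the changes of the 8 stayed between 1.37 and 2.44 log2 units. Quantile normalization also left no initiation factor gene called higher, and thinning all libraries to the smallest total left 1, Eif1b. For day 7 against day 0 the fall of Eif2s3y and the rise of Eif2b2 were kept under all 14 alternatives tried. The genes called higher there numbered 4 without day 7 library III, 1 without library IV, 1 with quantile normalization, 4 with thinning and 6 with voom, and without either day 7 library Eif4ebp2 was no longer called lower.

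Start codon selection and subunit joining gave the most divided picture, with 3 of 7 genes called higher and 1 lower from day 4 to day 7. Of all genes averaging 5 RPKM or more 13.5% were called each way over that step, a difference that was not tested. Eif5b, the GTPase that joins the subunits, stood at 7.95 and 6.50 RPKM on day 0, 5.45 and 6.06 on day 4 and 22.5 and 25.7 on day 7. Both day 7 libraries lay above the other 4. It rose by 1.89 ± 0.39 log2 units from day 4 (limma adjusted p = 0.0174) and by 1.61 ± 0.39 from day 0 (limma adjusted p = 0.0181).

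Eif5, which triggers GTP hydrolysis by eIF2, went the other way. Its values were 97.3 and 107 RPKM on day 0, 147 and 318 on day 4 and 74.2 and 50.3 on day 7. The day 4 libraries were the highest and the day 7 libraries the lowest, with no overlap between days. Eif5 fell by 1.81 ± 0.48 log2 units from day 4 to day 7 (limma adjusted p = 0.0445), a call lost with median-ratio scaling, thinning, no filter on low values, and on leaving out any 1 library of day 4 or day 7, with changes of -2.36 to -1.25 over the last. Its change from day 0 was -0.73 ± 0.48 (limma adjusted p = 0.244). In RPKM, Eif5 stood 12.2 and 16.5 times above Eif5b on day 0, 27.0 and 52.5 times on day 4, and 3.30 and 1.96 times on day 7.

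Eif1b, a close paralogue of Eif1, stood at 30.4 and 20.7 RPKM on day 0, 26.4 and 39.1 on day 4 and 121 and 93.7 on day 7, again with both day 7 libraries above the others. It rose by 1.70 ± 0.40 log2 units from day 4 (limma adjusted p = 0.0290) and by 2.04 ± 0.40 from day 0 (limma adjusted p = 0.00957). Eif1 itself was not called, at 0.54 ± 0.73 from day 4 (limma adjusted p = 0.573) and 1.91 ± 0.73 from day 0 (limma adjusted p = 0.0643), so a difference between the paralogues was not shown. Eif1 over Eif1b was 20.9 and 10.3 on day 0, 31.2 and 28.6 on day 4 and 9.79 and 17.5 on day 7, with both day 4 libraries above the rest and days 0 and 7 overlapping.

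Eif1ax and Eif1a both encode eIF1A, which works beside eIF1 in scanning. Eif1ax, on the X chromosome, stood at 36.8 and 34.2 RPKM on day 0, 15.0 and 23.3 on day 4 and 50.1 and 79.6 on day 7. The day 4 libraries were the lowest. Eif1ax rose by 1.70 ± 0.40 log2 units from day 4 to day 7 (limma adjusted p = 0.0302), a step over which day and source animals cannot be told apart. Eif1a had 14.0 and 24.2, 5.85 and 28.1, and 35.9 and 33.2 RPKM and a change of 1.33 ± 0.65 over that step (limma adjusted p = 0.209). Eif1ad, an eIF1A-domain protein, ranged from 12.4 to 25.7 RPKM and was not called.

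**Figure D2:**
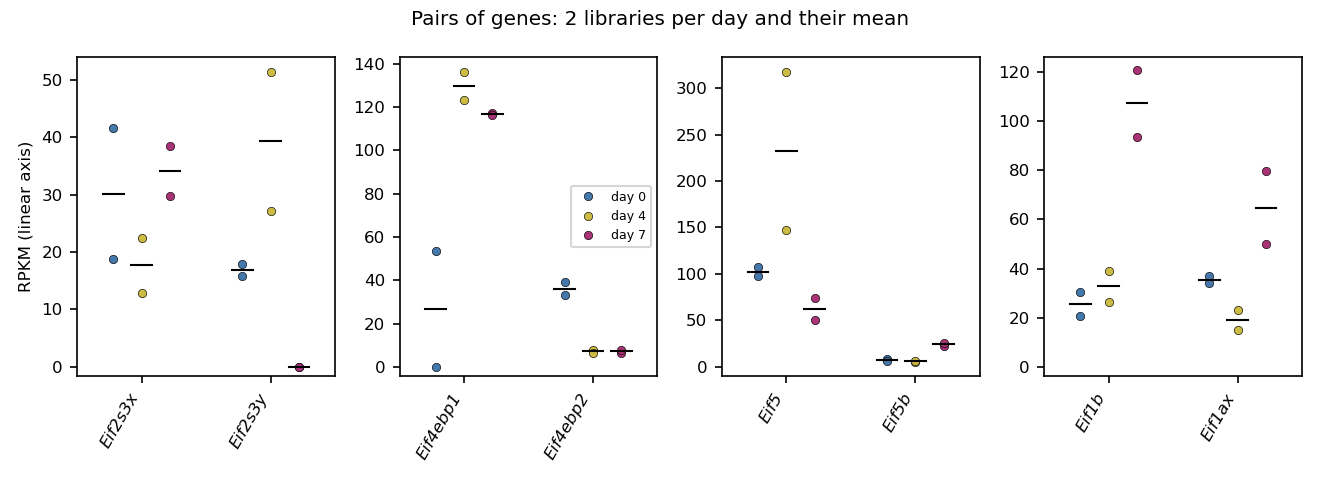
RPKM (vertical axis, linear, starting just under 0) of 4 pairs of genes, with 2 libraries per day as points and their mean as a bar. Eif2s3y is at 0 in both day 7 libraries, Eif4ebp1 is at 0 in day 0 library III, and Eif5b, Eif1b and Eif1ax are highest on day 7.

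In eIF2 itself the clearest values were those of Eif2s3y. It stood at 15.8 and 17.9 RPKM on day 0, from 9 and 5 reads, at 51.4 and 27.2 on day 4, and at 0 reads in both libraries of day 7. Against a floor of 3 reads in the shallower day 7 library (0.155 RPKM) it was at least 253-fold lower than the day 4 mean and at least 109-fold lower than the day 0 mean. Both comparisons were called (limma adjusted p = 0.000468 and 0.00109). Eif2s3x, its X-linked copy, was not called, at 18.7 and 41.6 RPKM on day 0, 12.9 and 22.5 on day 4 and 38.4 and 29.8 on day 7, a change of 0.95 ± 0.48 log2 units from day 4 to day 7 (limma adjusted p = 0.227). Both copies together came to 34.5 and 59.6 RPKM on day 0, 64.3 and 49.7 on day 4 and 38.4 and 29.8 on day 7.

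Eif2s2, the beta subunit, stood at 9.33 and 19.1 RPKM on day 0, 5.76 and 8.47 on day 4 and 25.4 and 26.7 on day 7, and rose by 1.76 ± 0.45 log2 units from day 4 (limma adjusted p = 0.0392). Both day 7 libraries lay above all others. Eif2s1, the alpha subunit that the kinases phosphorylate, was at 16.7 and 18.1, 9.29 and 23.8, and 31.0 and 35.1 RPKM, with day 7 highest but no call (limma adjusted p = 0.168 from day 4). Eif2a and Eif2d, which can deliver initiator tRNA without eIF2, lay between 1.88 and 10.6 RPKM in all libraries and were not called.

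The exchange factor eIF2B returns eIF2 to its GTP form, and of its 5 subunits Eif2b2 alone was called. Eif2b2 stood at 5.91 and 4.03 RPKM on day 0, from 3 and 1 reads, at 12.6 and 14.2 on day 4 and at 41.9 and 37.7 on day 7. The days did not overlap, and the order was day 0, day 4, day 7. It rose by 1.50 ± 0.38 log2 units from day 4 (limma adjusted p = 0.0383) and by 2.79 ± 0.38 from day 0 (limma adjusted p = 0.00247). Over all genes tested 5.85% were called higher from day 4 to day 7 and 11.3% from day 0 to day 7. Among genes averaging 5 RPKM or more the shares were 13.5% and 25.9%, and the 5 subunits were not tested against them. The subunits Eif2b1, Eif2b3, Eif2b4 and Eif2b5 had changes of -0.95 to 0.12 over day 7 against day 0, and Eif2b4 was the steadiest, between 11.4 and 17.9 RPKM in every library.

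The 4 kinases of eIF2 respond to separate stresses, and no comparison called any of them. All had negative changes from day 0 to day 7. Eif2ak2, the interferon-induced kinase that senses double-stranded RNA, stood at 12.9 and 13.2 RPKM on day 0, 17.8 and 4.14 on day 4 and 4.72 and 1.48 on day 7 (-1.90 ± 0.68, limma adjusted p = 0.0549). Eif2ak1, the haem-regulated kinase of red cell precursors, stood at 20.7 and 37.9, 17.9 and 20.4, and 14.9 and 12.98 RPKM (-0.96 ± 0.41, limma adjusted p = 0.0899), with day 7 below the others. The sums of erythroid and of neutrophil markers were also lower on day 7 than on day 0, as given above. Any part of this in the change of Eif2ak1 was not tested. Eif2ak3, a kinase of the endoplasmic reticulum, and Eif2ak4, which senses amino acid shortage, were lower genes, at 2.75 to 5.64 and 1.53 to 5.82 RPKM (limma adjusted p = 0.453 and 0.418).

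The eIF3 complex is the scaffold on the small subunit, and its 13 genes held the most calls. All 13 had positive changes from day 4 to day 7 and 12 of 13 from day 0 to day 7, with 3 and 6 called. Of all genes averaging 5 RPKM or more 49.3% and 54.0% were positive over these steps, and 13.5% and 25.9% were called higher. The genes of a complex share libraries and are not replicates. Their median was 34.8 and 29.7 RPKM on day 0, 24.96 and 37.5 on day 4 and 61.5 and 62.9 on day 7. Median log2 changes were 0.85 from day 4 and 1.02 from day 0, beside -0.03 and 0.18 for genes averaging 5 RPKM or more.

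Eif3f, an MPN-domain subunit whose pyrimidine run is shown above, had the highest RPKM of the complex on day 7. It stood at 67.8 and 37.8 RPKM on day 0, 51.5 and 66.5 on day 4 and 201 and 273 on day 7, with day 7 above the rest. Eif3f rose by 1.98 ± 0.44 log2 units from day 4 (limma adjusted p = 0.0225) and by 2.19 ± 0.44 from day 0 (limma adjusted p = 0.0102).

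Eif3i, a WD-repeat subunit, was the lowest of the complex in all 4 libraries of days 0 and 4. It stood at 17.3 and 5.58 RPKM on day 0, the latter from 3 reads, at 8.81 and 9.21 on day 4 and at 35.3 and 53.4 on day 7, and day 7 again lay above the rest. The rise was 2.15 ± 0.53 log2 units from day 4 (limma adjusted p = 0.0340) and 2.02 ± 0.53 from day 0 (limma adjusted p = 0.0222). Eif3m, a PCI-domain subunit, had 45.4 and 36.1, 29.8 and 31.7, and 83.9 and 82.8 RPKM, and rose by 1.41 ± 0.35 from day 4 (limma adjusted p = 0.0357) and by 1.02 ± 0.35 from day 0 (limma adjusted p = 0.0476). The change from day 0 turned to -0.11 with quantile normalization.

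Called from day 0 only were Eif3k, Eif3g and Eif3h. Eif3k, a small subunit at the edge of the complex, stood at 25.3 and 6.08 RPKM on day 0, the latter from 2 reads, at 24.96 and 27.0 on day 4 and at 88.9 and 104 on day 7, a rise of 2.83 ± 0.58 log2 units (limma adjusted p = 0.0110). Eif3g, an RNA-binding subunit, had 34.8 and 29.7, 28.8 and 54.7, and 73.9 and 90.8 RPKM, a rise of 1.32 ± 0.42 (limma adjusted p = 0.0373). Eif3h, the partner of Eif3f, had 58.0 and 25.8, 62.0 and 108, and 104 and 114 RPKM, so that day 4 library II stood among the day 7 values, and rose by 1.47 ± 0.49 (limma adjusted p = 0.0443). The calls of Eif3g, Eif3h and Eif3m from day 0 were lost without day 0 library III. All 3 stood higher on day 7 than in either day 0 library. With quantile normalization all 6 eIF3 calls from day 0 were lost, and with thinning all but that of Eif3f. Voom also lost those of Eif3g, Eif3h, Eif3i and Eif3m. Fitting the 2 compared days alone lost those of Eif3h, Eif3i and Eif3k. The Eif3h call was lost without a filter too, and its change ranged from 0.37 to 2.04 log2 units over all alternatives.

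Eif3e, another PCI-domain subunit, was not called although both day 7 libraries lay above the other 4. It stood at 39.4 and 19.4 RPKM on day 0, 15.3 and 25.8 on day 4 and 61.5 and 62.9 on day 7, a change of 1.60 from day 4 and 1.14 from day 0 on the log2 scale. Eif3a, the largest scaffold subunit, stood at 25.8 and 45.1 RPKM on day 0, 16.8 and 29.9 on day 4 and 30.4 and 25.8 on day 7, and was the lowest of the complex on day 7. Eif3b and Eif3c, which form the core with it, had 51.5 to 67.9 RPKM on day 7 and 40.7 to 63.8 on day 0. Highest over lowest subunit was 6.62 and 10.6 on day 7, within the span of 3.93 to 11.7 seen over the earlier libraries. The coefficient of variation over the 13 subunits was 65.5% and 82.9% on day 7, above the 42.8% to 57.6% of those libraries.

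**Figure D3:**
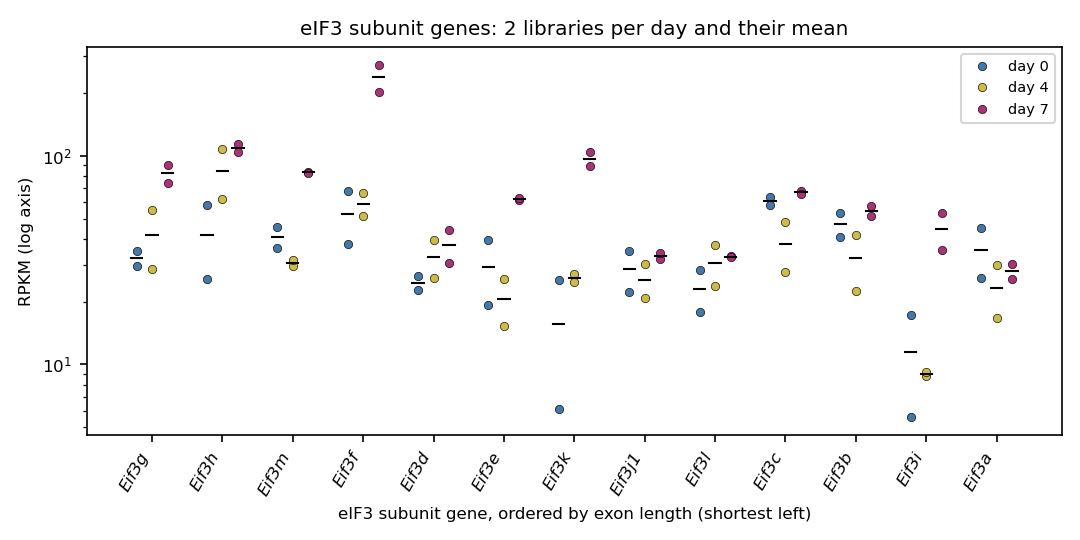
RPKM (vertical axis, log scale) of the 13 eIF3 subunit genes, ordered by exon length from short to long, with 2 libraries per day as points and their mean as a bar. Eif3c, Eif3e, Eif3f, Eif3g, Eif3i, Eif3k and Eif3m have both day 7 points above the other 4 libraries, while the points of the longest gene, Eif3a, overlap.

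At the cap, Eif4a1 and Eif4a2 encode forms of the RNA helicase that unwinds leaders, and Eif4a2 was called higher from day 0 to day 7. Eif4a2 stood at 28.4 and 31.3 RPKM on day 0, 63.1 and 57.0 on day 4 and 58.7 and 64.7 on day 7, so that day 4 and day 7 overlapped above day 0. The rise to day 7 was 1.02 ± 0.35 log2 units (limma adjusted p = 0.0463), and that to day 4 was 0.98 ± 0.35, not called (limma adjusted p = 0.132). The call at day 7 was lost with quantile normalization, voom and thinning. Over all alternatives the change to day 7 ranged from 0.04 to 1.45 log2 units. Eif4a1 stood at 113 and 72.0, 33.3 and 103, and 175 and 180 RPKM, with 0.97 ± 0.56 from day 0 (limma adjusted p = 0.194). Eif4a1 over Eif4a2 was 3.97 and 2.30 on day 0, 0.528 and 1.80 on day 4 and 2.98 and 2.78 on day 7, lowest in both day 4 libraries. Eif4a3, the exon junction helicase, and the cofactors Eif4b and Eif4h stood between 29.0 and 103 RPKM and were not called.

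None of the cap-binding proteins was called. Eif4e, the main one, was among the steadiest, at 24.7 and 33.0 RPKM on day 0, 30.2 and 42.5 on day 4 and 37.8 and 33.3 on day 7 (0.30 ± 0.38 from day 0 to day 7, limma adjusted p = 0.511). Eif4e2, a form tied to repression, ranged from 8.98 to 20.7 RPKM (limma adjusted p = 0.860 over the same step). Eif4e3 stood at 13.6 and 17.7, 9.32 and 6.09, and 23.0 and 17.2 RPKM, and its change of 1.29 ± 0.41 from day 4 to day 7 missed the threshold (limma adjusted p = 0.0784).

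The scaffolds that link cap and eIF3 also gave no call. Eif4g1 stood at 30.7 and 59.6 RPKM on day 0, 14.5 and 38.6 on day 4 and 30.8 and 25.2 on day 7 (-0.60 ± 0.53 from day 0 to day 7, limma adjusted p = 0.362). Eif4g2, which lacks the eIF4E-binding part, stood at 76.2 and 110, 99.3 and 175, and 90.3 and 79.0 RPKM (-0.12 ± 0.44, limma adjusted p = 0.838). Eif4g2 exceeded Eif4g1 in RPKM in every library, by 2.48 and 1.85 times on day 0, 6.83 and 4.53 on day 4 and 2.94 and 3.13 on day 7. Eif4g3 was the lowest of them, at 5.30 to 8.94 RPKM (-0.46 ± 0.42, limma adjusted p = 0.377).

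Beside the fall of Eif4ebp2, the other main repressor, Eif4ebp1, was higher in culture but not called. It stood at 53.7 and 0 RPKM on day 0, 123 and 136 on day 4 and 117 and 116 on day 7. The 0 of day 0 library III allows up to 19.4 RPKM at 3 reads, and the spread of the day 0 pair left a change of 4.14 ± 1.5 to day 4 (limma adjusted p = 0.132) and of 3.99 ± 1.5 to day 7 (limma adjusted p = 0.0581). Eif4ebp1 over Eif4ebp2 was 1.63 in day 0 library II, and 15.8, 21.3, 18.0 and 14.7 in the day 4 and day 7 libraries in order. Eif4enif1, the nuclear import partner of eIF4E, stood at 7.81 and 18.4, 12.3 and 12.02, and 6.15 and 1.79 RPKM, with day 7 lowest and no call (limma adjusted p = 0.0644 from day 0).

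Eif6, which keeps the ribosomal subunits apart until the large one is mature, had the largest called rise of the family. It stood at 24.9 and 4.24 RPKM on day 0, from 12 reads and 1 read, at 35.8 and 36.6 on day 4 and at 106 and 143 on day 7. The days did not overlap, and the rise from day 0 to day 7 was 3.41 ± 0.67 log2 units (limma adjusted p = 0.00967), with 1.74 ± 0.67 from day 4 not called (limma adjusted p = 0.132). The call was lost with quantile normalization, with thinning, without either day 4 library or day 7 library IV, and with the 2 compared days fitted alone.

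Eif5a, the hypusine-bearing factor that helps peptide bonds form, was next to Eif1 in mean level but varied between replicates, at 521 and 144 RPKM on day 0, 166 and 279 on day 4 and 456 and 502 on day 7. Its change of 0.80 ± 0.67 from day 0 to day 7 was not called (limma adjusted p = 0.339). Eif5a2, its rare paralogue, stayed at 1.46 to 5.08 RPKM (limma adjusted p = 0.868). Counts of near-identical copies are uncertain: the RefSeq table names 11 pseudogenes of the Eif family, none of them in the deposited table, and how reads shared with them were placed is not given in the sources used here.

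Called rises were mostly of short genes. The 8 genes higher at day 7 than at day 4 had a median exon length of 1540 bases and the other tested ones 2879, and the 11 higher than at day 0 had 1507 against 2882. Across the 53 genes, which share libraries and are not replicates, the Spearman correlation of length with log2 fold change was -0.29 from day 4 and -0.48 from day 0 to day 7. Over the 8121 genes averaging 5 RPKM or more it was -0.29 and -0.34, and the part of length in the calls was not tested.

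**Figure D4:**
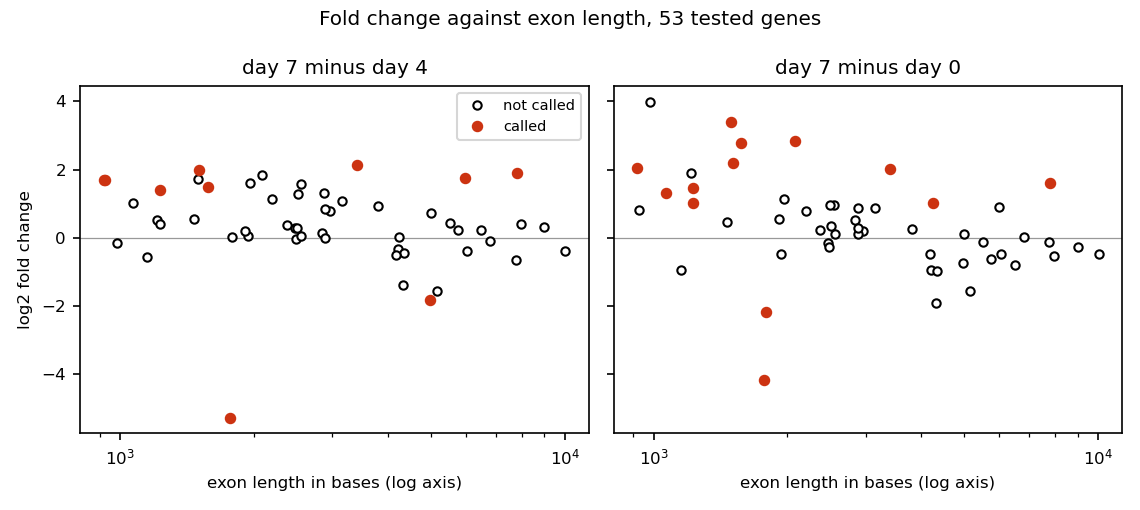
Log2 fold change (vertical axis) of the 53 tested genes against exon length in bases (horizontal axis, log scale), for day 7 minus day 4 and day 7 minus day 0. Called genes are filled; the 8 and 11 called higher have median lengths of 1540 and 1507 bases.

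Other genes of the pathway, in lists by role, moved in part. Of 12 elongation and termination factors 3 rose from day 4 to day 7 and none fell. Over all genes tested 5.85% were called higher and 6.75% lower, and 13.5% each way of those averaging 5 RPKM or more. No list was tested against these shares or those given below. Eef1b2, an exchange factor for eEF1A, stood at 41.7 and 13.1 RPKM on day 0, 37.1 and 36.7 on day 4 and 272 and 265 on day 7 (2.83 ± 0.52 log2 units from day 4, limma adjusted p = 0.0116). Eef1a1, which delivers tRNAs, was not called, at 1132 to 2299 RPKM in all libraries. Pabpc4, a poly(A)-binding protein, was the only one of 5 such genes and partners called. It stood at 40.5 and 63.4 RPKM on day 0, 3.46 and 3.89 on day 4 and 6.40 and 10.6 on day 7. Pabpc4 fell by 3.47 ± 0.43 log2 units from day 0 to day 4 (limma adjusted p = 0.0105). Over that step 1.92% of all genes tested were called lower, and 3.36% of those averaging 5 RPKM or more. Of 9 helper factors outside the family Mcts1 alone rose, from day 0 to day 7 (1.85 ± 0.52, limma adjusted p = 0.0276). Mcts1 had 13.01 and 4.43 RPKM on day 0, from 6 reads and 1 read, and 37.5 and 24.6 on day 7. Called higher from day 0 to day 7 were 11.3% of all genes tested and 25.9% of those averaging 5 RPKM or more.

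Of the inputs to the cap, 12 mTORC1 and MNK genes, 3 rose and 3 fell from day 0 to day 7. Over all genes tested 11.3% were called higher and 29.3% lower. Among genes averaging 5 RPKM or more the shares were 25.9% and 17.6%. The counts were near these shares, and the calls are given as single genes. Rheb, the GTPase that activates mTORC1, stood at 20.4 and 8.33 RPKM on day 0, 17.8 and 28.7 on day 4 and 166 and 125 on day 7, and rose by 3.36 ± 0.49 log2 units (limma adjusted p = 0.00324). Mtor itself, the kinase, had 10.6 and 11.9, 3.82 and 2.56, and 2.18 and 0.800 RPKM, and fell by 2.36 ± 0.53 (limma adjusted p = 0.0145). Mknk1, a kinase of eIF4E, rose from day 0 to day 4 (2.30 ± 0.42, limma adjusted p = 0.0254), from 10.5 and 9.59 to 39.1 and 72.7 RPKM.

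Of 11 genes of the integrated stress response, the program that follows eIF2 phosphorylation, 1 rose from day 0 to day 4, and from day 4 to day 7 1 rose and 2 fell. Over all genes tested 3.66% were called higher in the first step, and 5.85% higher and 6.75% lower in the second. Among genes averaging 5 RPKM or more these shares were 8.29%, 13.5% and 13.5%. Ddit3, a stress transcription factor, stood at 0 and 7.28 RPKM on day 0, from 0 reads and 1 read, and at 42.9 and 56.6 on day 4. It was called, with a change of 4.13 ± 0.87 log2 units (limma adjusted p = 0.0357). Atf3, another, rose from 8.98 and 46.3 RPKM on day 4 to 218 and 169 on day 7 (3.15 ± 0.73, limma adjusted p = 0.0271). Ppp1r15a and Ppp1r15b, which direct the phosphatase to eIF2, fell over that step, from 76.8 and 164 to 33.0 and 32.4 RPKM (-1.75 ± 0.48, limma adjusted p = 0.0482) and from 74.8 and 105 to 13.9 and 11.99 RPKM (-2.69 ± 0.52, limma adjusted p = 0.0142). Atf4, the central factor of the response, had 35.2 and 96.6 RPKM on day 4 and 111 and 71.7 on day 7 and was not called.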

How the data were processed

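RNA-seq of 6 libraries was analysed, 2 each for days 0, 4 and 7. The deposited table gives RPKM per gene with exon lengths, per the file headers. Per the submitters' processing notes, which state no roles, TopHat2 2.0.13, SAMtools 1.1 and build mm9 were used. Counter, annotation and strand handling: not given in the sources used here. RPKM times length gave whole reads in every library (largest distance 6.81e-05 reads), from which depth was read. Intervals and floors of 3 reads cover counting error only.

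From the deposited RPKM, log2(RPKM + 1) was computed, and 19279 genes with at least 1 RPKM in at least 2 libraries were fitted with limma 3.58.1 in R 4.3.3 (3 day means, mean-variance trend, 3 residual degrees of freedom), two-sided, with Benjamini-Hochberg adjustment over all genes tested. A run of the fit on simulated data checked the signs of large planted changes, so it does not bear on smaller changes. Plots used matplotlib 3.10.9. The members and lists were chosen with earlier results of these data known. Every initiation factor gene may be named; full statistics go to at most 12 called per comparison, largest first, averaging 5 RPKM or more, and to listed paralogues and kinases. For other lists, called genes with the smallest p or the highest RPKM are named. Start sequences come from RefSeq on GRCm38.p6, another build than mm9, and were matched by Entrez ID.

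Alternatives were a pseudocount of 0.1, no filter, a filter at 5 RPKM, median-ratio scaling, quantile normalization, voom on recovered reads, thinning to the smallest total, and leaving out each library. Fitting the 2 compared days alone was chosen after seeing the data. Marker lists for plasmacytoid DC, myeloid progenitor and B lineage genes, and lists for hypusine synthesis and mitochondrial factors, were also counted.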

Additional observations from a re-analysis of the deposited data

How the results depend on the processing

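The main counts of called initiation factor genes were 0 higher and 1 lower (day 4 against day 0), 8 and 2 (day 7 against day 4), and 11 and 2 (day 7 against day 0). The 24 calls were recomputed under 14 alternatives, 336 values in all, of which 218 kept their call, 117 lost it and 1 reversed: Eif3m at day 7 against day 0, with -0.1143 log2 units under quantile normalization. Counts that moved by over 1.5 times follow, and the cause was not tested.

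With voom on reads, 0 genes were lower at day 4 against day 0, 14 were higher and 4 lower at day 7 against day 4, and 6 were higher at day 7 against day 0. With quantile normalization the genes called higher numbered 0 at day 7 against day 4 and 1 at day 7 against day 0. With thinning, 1 was higher and 1 lower at day 7 against day 4, and 4 were higher at day 7 against day 0. At day 7 against day 4, 1 was lower without a filter, 1 with median-ratio scaling, and 13 were higher with those days fitted alone.

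Over all genes, 1075 were called at day 4 against day 0. This became 535 with a pseudocount of 0.1, 309 with voom, 1733 with thinning and 529 with those days alone. At day 7 against day 4 the 2428 called became 3996, 12786, 948 and 3921 in the same order, and 978 with quantile normalization. At day 7 against day 0 the 7832 called became 4957 with the filter at 5 RPKM, 2141 with quantile normalization and 3775 with thinning. By voom, 18.7% of the called genes were higher at day 7 against day 4, in place of 46.4%, and 37.5% in place of 65.6% at day 4 against day 0. With thinning that last share was 26.7%. By voom the genes called at day 7 against day 4 went from 1127 to 2390 higher and from 1301 to 10396 lower. At day 4 against day 0 they went from 705 to 116 higher and from 370 to 193 lower.

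Leaving out 1 library assumes that the lone sample of its day varies like the others. It gave 0 to 6 initiation factor genes higher and 0 to 1 lower at day 4 against day 0, 0 to 13 and 0 to 2 at day 7 against day 4, and 1 to 16 and 1 to 4 at day 7 against day 0. All genes called ranged from 0 to 2397, from 0 to 4120 and from 1173 to 9200. No paired analysis was possible because the groups compared share fewer than 2 replicate numbers. Depth limits day 0 most, where 3 reads of a gene 1 kb long are worth 9.29 and 19.0 RPKM.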

Other observations

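Among the other lists, 3 of 9 plasmacytoid DC markers were called higher from day 4 to day 7 (limma adjusted p under 0.05) and none lower, and their sum stood at 705 and 792 RPKM on day 7 against 29.5 to 89.4 before. Bst2, an interferon-inducible surface protein, made up 613 and 714 RPKM of that sum, and the median of the list was 5.44 and 8.02 RPKM on day 7 against 1.44 to 6.64 before. Of 12 conventional DC markers 4 were called higher over that step, among them Cd74, H2-Ab1 and H2-Aa. Over all genes tested 5.85% were called higher and 6.75% lower over it, and 13.5% each way of those averaging 5 RPKM or more. From day 0 to day 4 the shares called higher were 3.66% and 8.29%. The lists were not tested against these shares. Of 10 myeloid progenitor markers 2 were called higher from day 0 to day 4, and 1 higher and 3 lower from day 4 to day 7. Of 9 B lineage markers 3 were called lower from day 4 to day 7, and their sum was 10.5 and 13.1 RPKM on day 7 against 52.7 to 87.2 before. Of 6 mitochondrial translation factors Tufm, the mitochondrial elongation factor for tRNA delivery, rose from day 4 to day 7 (1.90 ± 0.38 log2 units, limma adjusted p = 0.0156), from 10.6 and 8.91 to 32.1 and 47.6 RPKM. Of 5 genes for hypusine and diphthamide synthesis Dph3 rose from day 0 to day 7 (1.52 ± 0.48, limma adjusted p = 0.0383). Dph3 had 4.08 and 3.34 RPKM on day 0, from 5 and 2 reads, and 12.998 and 11.95 on day 7. Called higher from day 0 to day 7 were 11.3% of all genes tested and 25.9% of those averaging 5 RPKM or more. The 5 genes were not tested against these shares.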
